A study of Mus musculus with 12 samples.

Results

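The 37 cell cycle and proliferation genes described here were picked by name, as genes whose products copy DNA or drive and carry out mitosis. All 37 were found among the 55401 gene rows of the count table, and all 37 passed the filter on low counts, which kept 16213 genes. They fall into 4 roles: 9 genes of DNA replication and nucleotide supply (Mcm2 to Mcm7, Pcna, Tyms and Rrm2), 9 cyclins, kinases and factors of timed protein degradation (Ccna2, Ccnb1, Ccnb2, Cdk1, Plk1, Aurka, Cdc20, Ube2c and Cdca3), 9 genes of chromosomes, kinetochores and the spindle checkpoint (Mki67, Top2a, Birc5, Aurkb, Cdca8, Bub1, Bub1b, Cenpe and Cenpf) and 10 genes of the spindle and cytokinesis (Kif11, Kif20a, Kif23, Tpx2, Prc1, Nusap1, Anln, Ect2, Spag5 and Hmmr). The 28 genes of the last 3 roles are called mitotic below. The genes lie on 16 chromosomes, all of them autosomes.

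Bulk tissue of mouse hearts was sequenced in 12 libraries; the animals were wild type and of the inbred strain C57BL/6J. The 4 groups hold 3 libraries each: exercised females (FEX), sedentary females (FSE), exercised males (MEX) and sedentary males (MSE). Exercise was 6 weeks of treadmill running, with sessions of 45 min at 1 km/h on 5 days of each week, and the sedentary animals, matched in age, stayed in their cages. Age is not given in the labels, nor is it said that each library is 1 animal, so that the spread behind each p-value is the one between libraries. The study asked what exercise changes in the cardiac transcriptome and whether the sexes differ in it.

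A dividing cell makes these transcripts in 2 waves. Genes of DNA replication are switched on before DNA synthesis by E2F factors, once cyclin-dependent kinases have inactivated the retinoblastoma proteins. Mitotic genes follow and are held off in resting cells by the DREAM complex, which binds their promoters at a cell cycle gene homology region (CHR), while the factor NF-Y acts on CCAAT boxes nearby. Cardiomyocytes of the adult mouse rarely divide, whereas endothelial cells, fibroblasts and immune cells of the heart can, so transcripts of this kind are scarce in bulk heart. In bulk tissue, fewer dividing cells and less RNA per dividing cell cannot be told apart.

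The promoters of the mitotic and the replication genes differ in their letters. The promoter windows below are shown because each of these genes has a single start in the RefSeq table (GRCm38.p6) and stood among the smallest p-values of its role class between sedentary females and sedentary males; the first 3 are mitotic and the last 2 belong to replication. Each window runs from 250 bases before the start to 50 after it and is printed 5′ to 3′ on the gene's strand, and capitals mark TTTGAA (CHR), CCAAT, and the E2F letters TTTGGCGC, TTTCCCGC, TTTGCCGC and TTTCGCGC, each searched on both strands. Kif23 is at chr9:61946750-61947049 (minus strand), Ube2c at chr2:164769679-164769978 (plus), Cdc20 at chr4:118437294-118437593 (minus), Mcm5 at chr8:75109259-75109558 (plus) and Mcm3 at chr1:20820263-20820562 (minus).
Kif23: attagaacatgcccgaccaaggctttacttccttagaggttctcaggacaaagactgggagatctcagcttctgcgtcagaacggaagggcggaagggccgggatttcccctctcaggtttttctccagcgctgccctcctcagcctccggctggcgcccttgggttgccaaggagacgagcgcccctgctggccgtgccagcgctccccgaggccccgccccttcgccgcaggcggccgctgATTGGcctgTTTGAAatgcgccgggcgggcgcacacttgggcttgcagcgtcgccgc
Ube2c: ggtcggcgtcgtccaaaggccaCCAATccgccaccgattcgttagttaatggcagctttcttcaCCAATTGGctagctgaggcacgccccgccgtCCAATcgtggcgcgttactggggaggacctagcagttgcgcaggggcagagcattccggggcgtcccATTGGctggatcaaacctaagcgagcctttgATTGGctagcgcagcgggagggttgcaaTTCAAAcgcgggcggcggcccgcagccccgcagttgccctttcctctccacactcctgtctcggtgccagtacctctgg
Cdc20: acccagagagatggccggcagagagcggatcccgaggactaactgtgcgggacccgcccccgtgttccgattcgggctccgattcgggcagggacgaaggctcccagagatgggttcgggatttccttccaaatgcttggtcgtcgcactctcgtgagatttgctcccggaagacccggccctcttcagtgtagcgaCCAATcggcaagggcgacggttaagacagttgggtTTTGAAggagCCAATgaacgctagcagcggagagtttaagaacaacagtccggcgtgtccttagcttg
Mcm5: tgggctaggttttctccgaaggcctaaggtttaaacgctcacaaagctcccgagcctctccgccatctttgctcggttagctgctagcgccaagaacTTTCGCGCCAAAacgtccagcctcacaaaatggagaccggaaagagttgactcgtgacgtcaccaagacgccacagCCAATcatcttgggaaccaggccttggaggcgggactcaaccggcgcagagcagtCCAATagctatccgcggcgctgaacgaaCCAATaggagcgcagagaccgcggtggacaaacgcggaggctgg
Mcm3: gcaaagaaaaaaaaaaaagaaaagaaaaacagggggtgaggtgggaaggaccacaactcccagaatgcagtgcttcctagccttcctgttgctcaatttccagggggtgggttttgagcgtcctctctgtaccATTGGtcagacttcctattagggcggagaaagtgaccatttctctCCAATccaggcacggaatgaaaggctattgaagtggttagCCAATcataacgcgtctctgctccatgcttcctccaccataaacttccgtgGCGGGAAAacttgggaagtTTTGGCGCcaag
The 3 mitotic windows each hold 1 CHR close to the start, at position 2 in Kif23, -29 in Ube2c and -18 in Cdc20, where 0 is the start base and the position is that of the motif's first letter as printed. Neither replication window holds a CHR, and each holds 2 E2F matches, those of Mcm5 overlapping one another.

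Over all genes with a window, the same split appeared. The table held 32 of the 37 genes; Aurkb, Ccna2, Kif20a, Mcm4 and Tpx2 were not matched. TTTGAA was present in 19 of 24 mitotic genes (79.2%), in 1 of 8 replication genes (12.5%), and in 20.2% of all 27025 genes of the table. E2F letters were present in 1 of 24 mitotic genes (4.17%), in 4 of 8 replication genes (50%) and in 2.6% of all genes. CCAAT was found in 87.5% of both classes, against 41.1% of all genes, with some CCAAT matches on opposite strands overlapping. These are matches of letters and do not show that a factor binds.

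Most of these transcripts were counted in small numbers. Library totals ran from 22204349 to 32566240 counts; mitochondrial rows made up 27.3% of FSE 2 and were at 0 in the other 11, and after the filter, which removed these rows, the totals ran from 22185330 to 26585651. Counts of the 37 genes ran from 3 (Bub1 in FEX 1) to 1944 (Pcna in FEX 3), and 26 of the genes stayed under 100 counts in every library. Cardiomyocyte markers summed to between 54107 and 65005 CPM (counts scaled to library size, with the trimmed mean of M-values) in every library. For the 37 genes the median standard error (SE) of a log2 difference was 0.32 in females and 0.34 in males for exercised over sedentary, against 0.14 over all genes tested.

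Per kilobase of exon, Pcna stood highest at 25.1 CPM per kb over the 12 libraries; it encodes the sliding clamp that holds DNA polymerases on their template and also serves in DNA repair. The 6 subunits of the Mcm2-7 helicase, which unwinds DNA at the replication fork, stood between 1.06 (Mcm5) and 2.65 (Mcm7) CPM per kb. Rrm2, the small subunit of ribonucleotide reductase, reached 0.973 CPM per kb and Tyms, thymidylate synthase, 0.234. Among mitotic genes Cenpf, a kinetochore protein with a transcript model of 15.4 kb, stood at 1.55 CPM per kb and Cdc20, the activator of the anaphase-promoting complex, at 1.16. Mki67, which codes for the proliferation antigen Ki-67, stood at 0.515 CPM per kb, Top2a, the topoisomerase that untangles sister DNA, at 0.437, and Cdk1, the mitotic kinase, at 0.252. The lowest was Cenpe, a kinetochore motor, at 0.100. In plain CPM, 11 of the 37 genes averaged under 1 and 29 under 5.

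Libraries of the same group differed in these genes, mostly in the mitotic ones, as the heat map of the 37 genes and the plot of list levels show. Within FEX, replicate 3 was the highest of the 3 libraries for 28 of 37 genes and replicate 1 the lowest for 26; over all genes tested these libraries held those places for 35.9% and 31.5%. Within FSE, replicate 3 was highest for 29 genes and replicate 1 lowest for 28, against 36.2% and 30.1% of all genes. Replicate 2 was highest for 27 genes in MSE, against 33.4% of all genes, while no MEX library led in more than 18. The mean log2 CPM of the 28 mitotic genes was 0.11, 0.74 and 1.15 in FEX, 0.58, 0.84 and 1.29 in FSE, 0.39, 0.43 and 0.65 in MEX, and -0.07, 0.60 and 0.09 in MSE. The replication genes were steadier, with means of 2.99, 2.94 and 3.15 in FEX, 2.78, 2.99 and 3.06 in FSE, 2.90, 2.79 and 2.82 in MEX, and 2.70, 2.84 and 2.56 in MSE. FEX 1, whose mitotic mean of 0.11 lay beside those of MSE 1 and MSE 3, and FSE 3, with the highest mean, move several of the values below. Many mitotic genes shifted together between libraries, so the counts of genes in either direction given below do not count independent observations.

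**Figure D1:**
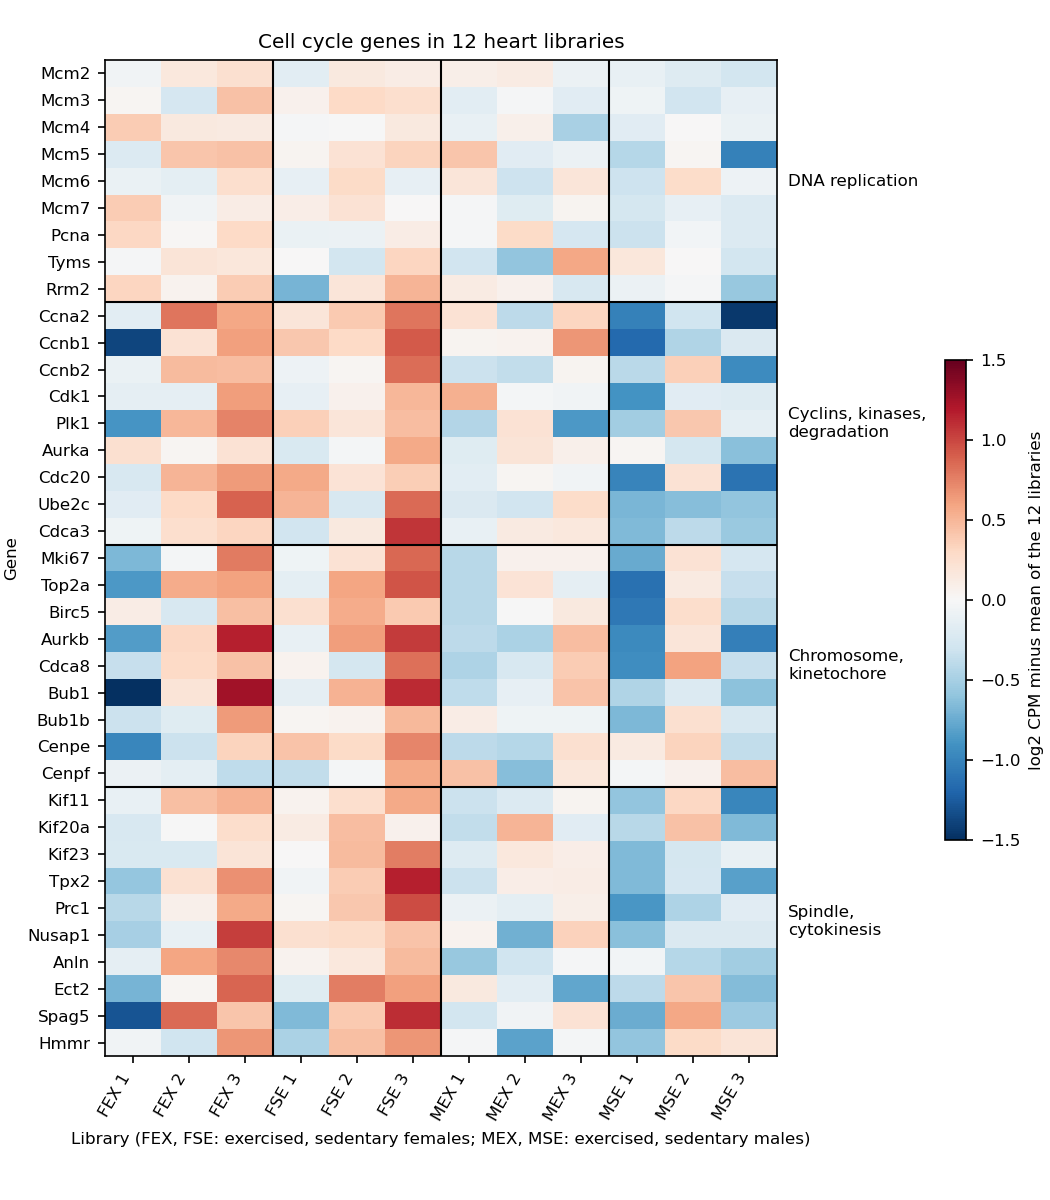
Heat map of 37 cell cycle genes (rows, by role) in 12 heart libraries (columns), coloured by log2 CPM minus the gene's mean over the 12 libraries, on a scale limited to 1.5 either way. FEX 3 and FSE 3 are mostly red across the mitotic rows, and MSE 1 and MSE 3 mostly blue; the replication rows at the top are pale.

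**Figure D2:**
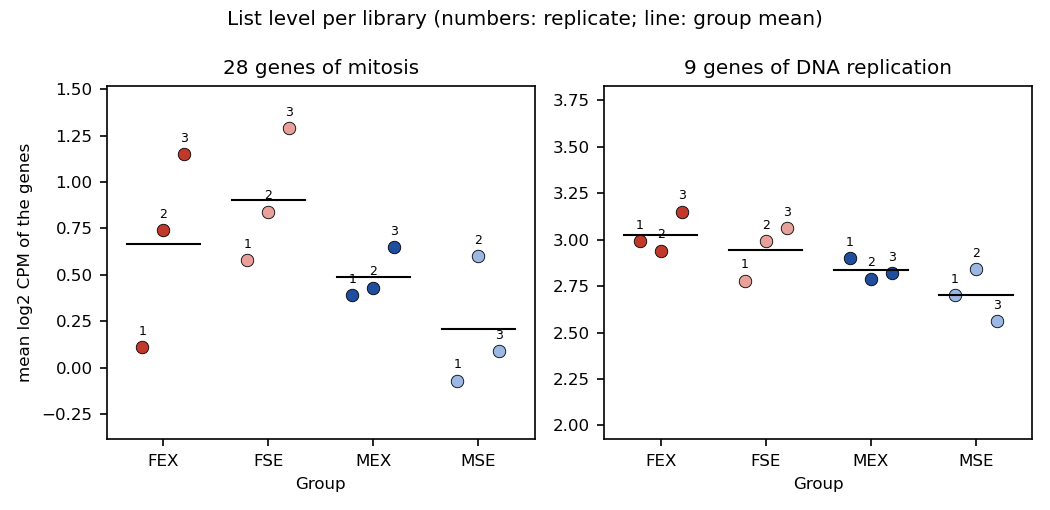
Mean log2 CPM of the 28 mitotic genes (left) and of the 9 replication genes (right) in each library, with replicate numbers and group means as lines; both axes span the same number of log2 units. The mitotic mean spreads from 0.11 to 1.15 within FEX, and the replication mean from 2.94 to 3.15.

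In females, 11 of the 37 genes had positive log2 differences for exercised over sedentary hearts, and in males 31 of 37; over all genes tested, 50.1% were positive in females and 50.1% in males. The median of the 37 was -0.09 in females and 0.20 in males, and the median of all genes was 0.00 in both. No gene of the 37 passed the test in either sex: edgeR's quasi-likelihood test, after Benjamini-Hochberg adjustment, called 0 of them, and 0.0% of all genes, in females and likewise in males. At an unadjusted p under 0.05 there was 1 gene in females (Kif23), against 3.93% of all genes, and 1 in males (Ccna2), against 7.84% of all genes. Limma's voom also called 0 of the 37 and 0.0% of all genes in each sex. DESeq2 called 0 of the 37 in females, against 0.00301% of the genes it adjusted, and in males 0 of the 2 of the 37 to which its own filter left an adjusted p, against 0.405% of genes. The 2 comparisons share no library. Log2 differences are given ± SE throughout, and CPM means ± SD with n = 3.

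**Figure D3:**
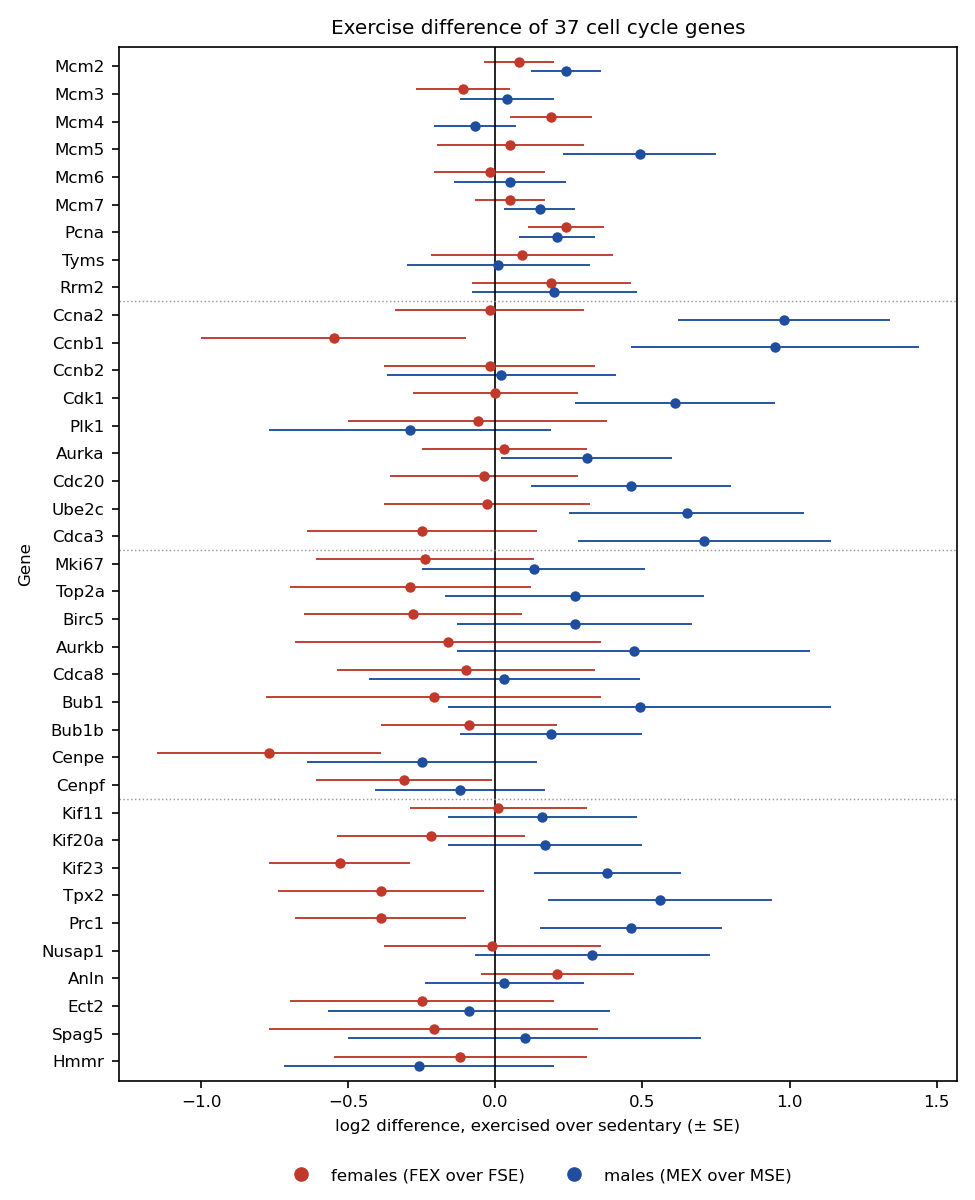
Log2 difference of exercised over sedentary hearts with its SE (edgeR) for 37 genes, in females (red, FEX over FSE) and males (blue, MEX over MSE); dotted lines part the 4 roles. The male points lie mostly right of 0, up to 0.98 for Ccna2, and the female points mostly left of it in the lower 3 blocks, while the replication genes at the top lie close to 0 in both.

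Differences of the cyclins, kinases and degradation factors ran from -0.55 to 0.03 in females and from -0.29 to 0.98 in males, where Ccna2 led. It encodes cyclin A2, which partners CDK2 in DNA synthesis and CDK1 at the entry to mitosis, and lies at chr3:36564865-36572150 on the minus strand (GRCm38). Its level was 1.5, 3.0 and 2.56 CPM in FEX, against 1.92, 2.24 and 3.0 CPM in FSE, and 1.97, 1.26 and 2.13 CPM in MEX, against 0.792, 1.35 and 0.567 CPM in MSE. The female groups overlapped broadly, and the lowest MEX library lay just under the highest MSE library. The log2 difference was -0.02 ± 0.32 in females (edgeR adjusted p = 1.0), 0.22 without FEX 1 and 0.18 without FSE 3. In males it was 0.98 ± 0.36 (edgeR, unadjusted p = 0.0163, adjusted p = 0.615). Exons of Ccna2 share 12.5% of their bases with Exosc9 on the opposite strand. The strand setting of the counting is not given, so reads in the shared bases may have been lost from the Ccna2 counts or added to them.

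Ccnb1, cyclin B1 of the mitotic kinase, had 0.250, 0.920 and 1.24 CPM in FEX, against 1.05, 0.982 and 1.55 CPM in FSE, and FEX 1 was the lowest of all 12 libraries. In males it had 0.804, 0.810 and 1.28 CPM in MEX, against 0.302, 0.550 and 0.661 CPM in MSE, with no overlap. The log2 differences were -0.55 ± 0.45 in females (edgeR adjusted p = 1.0) and 0.95 ± 0.49 in males (adjusted p = 0.64). Cdk1, its catalytic partner, averaged 1.35 ± 0.463 CPM in FEX and 1.36 ± 0.327 CPM in FSE (SD, n = 3 each), nearly equal means. In males Cdk1 had 1.77, 1.17 and 1.15 CPM in MEX, against 0.604, 1.06 and 1.04 CPM in MSE, again without overlap, a difference of 0.61 ± 0.34 (adjusted p = 0.669).

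Ube2c, the ubiquitin-conjugating enzyme of the anaphase-promoting complex, and Cdca3, a trigger of mitotic entry, also stood higher in every MEX library than in any MSE library. Ube2c averaged 0.864 ± 0.212 CPM in MEX and 0.548 ± 0.0194 CPM in MSE, a log2 difference of 0.65 ± 0.40, and Cdca3 0.554 ± 0.0628 CPM in MEX and 0.338 ± 0.0399 CPM in MSE, a difference of 0.71 ± 0.43. With Mcm2 and Prc1, the genes whose MEX libraries all lay above the MSE libraries were 6 of 37, against 6.17% of all genes. In females 0 of 37 lay wholly above, against 5.42% of all genes, and 0 wholly below, against 4.37%. Ube2c shares 22.8% of its exon bases with Tnnc2 on the opposite strand. Ccnb2, the second B-type cyclin, averaged 1.34 ± 0.297 CPM in FEX and 1.37 ± 0.538 CPM in FSE, and 0.920 ± 0.163 CPM in MEX and 0.902 ± 0.448 CPM in MSE. Plk1, the polo-like kinase, averaged 0.846 ± 0.456 CPM in FEX and 0.887 ± 0.0943 CPM in FSE, and 0.544 ± 0.241 CPM in MEX and 0.666 ± 0.243 CPM in MSE, and was one of the 6 genes with a negative difference in males. Aurka, the Aurora A kinase of the spindle poles, averaged 1.46 ± 0.119 CPM in FEX and 1.43 ± 0.452 CPM in FSE, and 1.32 ± 0.183 CPM in MEX and 1.06 ± 0.259 CPM in MSE. Pseudogenes named for Ccnb1 and Ccnb2 lie elsewhere in the genome, and reads shared with them may have been lost or counted for either.

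**Figure D4:**
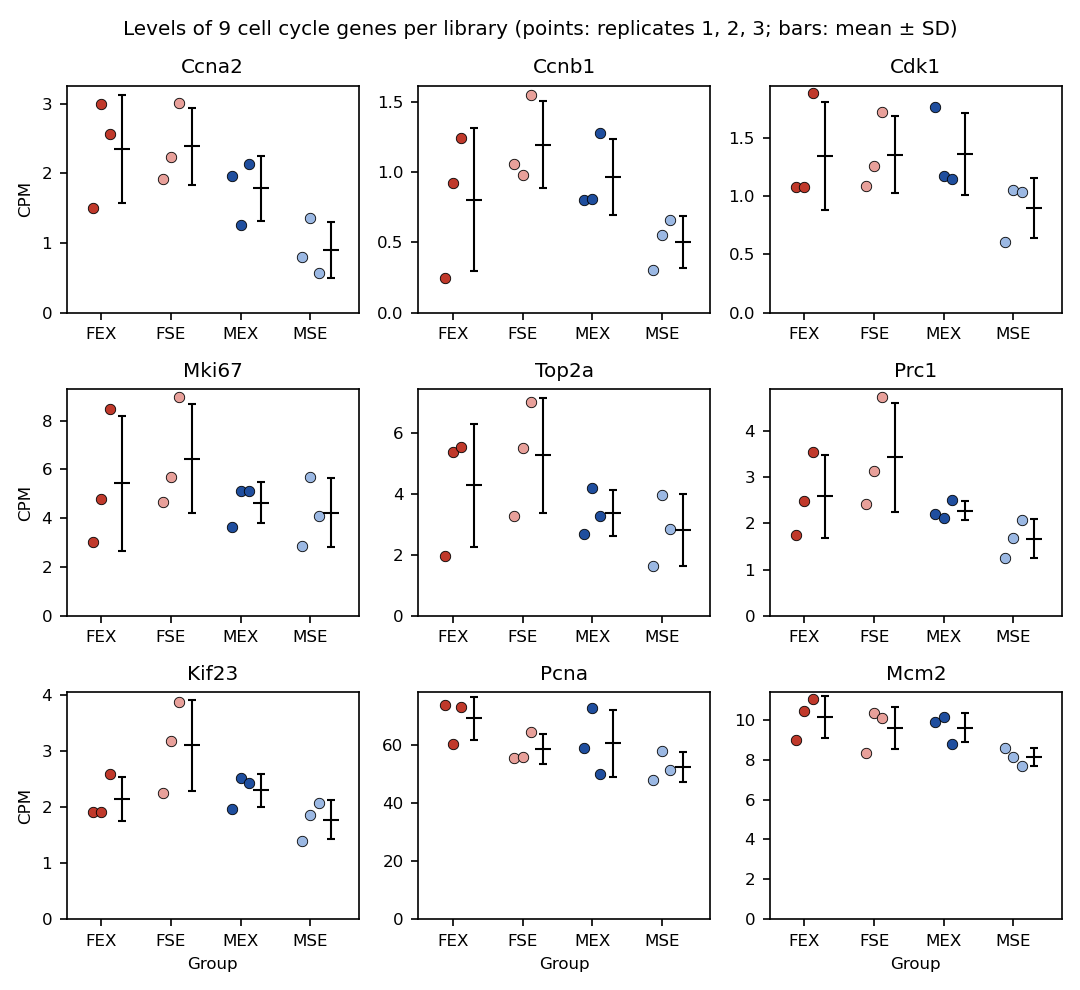
CPM of 9 genes in each library (points, replicates 1 to 3 from left to right), with mean ± SD beside them, for FEX, FSE, MEX and MSE; each axis starts at 0. Ccnb1, Cdk1, Prc1 and Mcm2 have every MEX point above every MSE point, and the FEX and FSE points overlap in all 9 panels.

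The chromosome and kinetochore genes were all 9 negative in females and 7 of 9 positive in males, with role medians of -0.24 and 0.19 and ranges of -0.77 to -0.09 and -0.25 to 0.49. Mki67 had 3.04, 4.80 and 8.47 CPM in FEX, against 4.67, 5.70 and 8.97 CPM in FSE, and 3.66, 5.13 and 5.11 CPM in MEX, against 2.87, 5.71 and 4.11 CPM in MSE. Its groups overlapped in both sexes, and the log2 difference was -0.24 ± 0.37 in females and 0.13 ± 0.38 in males. Top2a had 1.96, 5.36 and 5.54 CPM in FEX, against 3.28, 5.5 and 7.03 CPM in FSE, and 2.69, 4.19 and 3.28 CPM in MEX, against 1.62, 3.98 and 2.83 CPM in MSE, with differences of -0.29 ± 0.41 and 0.27 ± 0.44 in females and males. Without FEX 1 the female values turned to 0.05 for both genes, and without MSE 1 the male values became -0.09 for Mki67 and -0.01 for Top2a. Cenpe had the most negative female value of the 37: 0.375, 0.640 and 1.05 CPM in FEX, against 1.13, 1.02 and 1.41 CPM in FSE, a difference of -0.77 ± 0.38 (edgeR, unadjusted p = 0.0601, adjusted p = 1.0). Only FEX 3 reached into the FSE range for Cenpe. Birc5, the survivin subunit of the chromosomal passenger complex, averaged 0.803 ± 0.209 CPM in FEX and 0.980 ± 0.117 CPM in FSE, and 0.684 ± 0.147 CPM in MEX and 0.570 ± 0.296 CPM in MSE. Its partners Aurkb, the Aurora B kinase, and Cdca8, borealin, averaged 0.918 ± 0.628 and 0.984 ± 0.282 CPM in FEX, 1.04 ± 0.428 and 1.07 ± 0.464 CPM in FSE, 0.623 ± 0.272 and 0.824 ± 0.288 CPM in MEX, and 0.449 ± 0.271 and 0.810 ± 0.486 CPM in MSE. The spindle checkpoint gene Bub1 had the widest ratio between libraries of a group among the 37, in FEX, with 0.125, 0.640 and 1.43 CPM in FEX, against 0.490, 0.825 and 1.28 CPM in FSE, and 0.402, 0.495 and 0.767 CPM in MEX, against 0.377, 0.465 and 0.331 CPM in MSE. Bub1b, which codes for the checkpoint protein BubR1, averaged 1.88 ± 0.755 CPM in FEX and 2.02 ± 0.396 CPM in FSE, and 1.74 ± 0.130 CPM in MEX and 1.53 ± 0.511 CPM in MSE.

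Among the spindle genes, Kif23 and Prc1 build the central spindle that divides the cell, Kif23 as a motor and Prc1 as the protein that bundles its microtubules. Over the 10 spindle genes the differences ran from -0.53 to 0.21 in females, 2 of them positive, and from -0.26 to 0.56 in males, 8 of them positive. Kif23 had 1.92, 1.92 and 2.60 CPM in FEX, against 2.26, 3.18 and 3.89 CPM in FSE, and 1.97, 2.52 and 2.43 CPM in MEX, against 1.40, 1.86 and 2.08 CPM in MSE. Only FEX 3 exceeded the lowest FSE library, and only MEX 1 fell below the highest MSE library. The log2 difference was -0.53 ± 0.24 in females (edgeR, unadjusted p = 0.0455, adjusted p = 1.0) and 0.38 ± 0.25 in males (adjusted p = 0.713). Prc1 had 1.75, 2.48 and 3.54 CPM in FEX, against 2.41, 3.14 and 4.73 CPM in FSE, and 2.21, 2.12 and 2.51 CPM in MEX, against 1.25, 1.69 and 2.08 CPM in MSE. Its differences were -0.39 ± 0.29 in females and 0.46 ± 0.31 in males; 11.1% of its exon bases overlap Rccd1 on the opposite strand. Tpx2, which recruits Aurora A to the spindle, had differences of -0.39 ± 0.35 in females, 0.03 without FSE 3, and 0.56 ± 0.38 in males. Kif11, the motor that parts the spindle poles, averaged 2.54 ± 0.579 CPM in FEX and 2.53 ± 0.477 CPM in FSE, and 1.82 ± 0.245 CPM in MEX and 1.62 ± 0.814 CPM in MSE. Ect2, the exchange factor that starts the cleavage furrow, averaged 1.01 ± 0.590 CPM in FEX and 1.22 ± 0.411 CPM in FSE, and 0.733 ± 0.250 CPM in MEX and 0.782 ± 0.354 CPM in MSE. Among the microtubule-binding genes, Nusap1 averaged 1.73 ± 1.06 CPM in FEX and 1.75 ± 0.132 CPM in FSE, Spag5 (astrin) 1.12 ± 0.726 CPM in FEX and 1.31 ± 0.780 CPM in FSE, and Hmmr 0.693 ± 0.285 CPM in FEX and 0.765 ± 0.313 CPM in FSE. In males Nusap1 averaged 1.35 ± 0.497 CPM in MEX and 1.08 ± 0.182 CPM in MSE, Spag5 0.924 ± 0.173 CPM in MEX and 0.860 ± 0.502 CPM in MSE, and Hmmr 0.505 ± 0.164 CPM in MEX and 0.616 ± 0.208 CPM in MSE. Groups of the same sex overlapped for all 4 genes. The cytokinesis motor Kif20a ranged from 1.04 to 2.43 CPM over the 12 libraries, and 29.3% of its exon bases overlap Cdc23 on the opposite strand.

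The medians of the replication genes lay closest together in the sexes, with 7 of 9 positive in females and 8 of 9 in males, medians of 0.08 and 0.15, and ranges of -0.11 to 0.24 and -0.07 to 0.49. Pcna had 74.1, 60.6 and 73.2 CPM in FEX, against 55.5, 56.0 and 64.7 CPM in FSE, and 59.1, 72.8 and 50.1 CPM in MEX, against 47.9, 58.0 and 51.6 CPM in MSE. The groups overlapped in each sex, and the log2 difference was 0.24 ± 0.13 in females and 0.21 ± 0.13 in males. Mcm2 had 9.89, 10.2 and 8.77 CPM in MEX, against 8.60, 8.12 and 7.70 CPM in MSE, without overlap, a difference of 0.24 ± 0.12 (edgeR adjusted p = 0.639). Mcm5 had 5.47, 3.60 and 3.83 CPM in MEX, against 3.02, 4.14 and 1.98 CPM in MSE, a difference of 0.49 ± 0.26 (adjusted p = 0.648), and in Mcm5 MSE 3 stood lowest of all 12 libraries. Mcm4 was the most positive of the helicase subunits in females, at 0.19 ± 0.14, with 10.1 ± 1.00 CPM in FEX and 8.84 ± 0.578 CPM in FSE. The remaining subunits averaged 7.69 ± 1.90 CPM in FEX and 8.30 ± 0.711 CPM in FSE for Mcm3, 9.02 ± 1.42 CPM in FEX and 9.13 ± 1.58 CPM in FSE for Mcm6, and 13.0 ± 1.99 CPM in FEX and 12.6 ± 0.948 CPM in FSE for Mcm7. In males they averaged 6.6 ± 0.404 CPM in MEX and 6.41 ± 0.514 CPM in MSE for Mcm3, 9.15 ± 1.73 CPM in MEX and 8.83 ± 1.88 CPM in MSE for Mcm6, and 11.2 ± 0.887 CPM in MEX and 10.1 ± 0.525 CPM in MSE for Mcm7. Rrm2 averaged 3.15 ± 0.375 CPM in FEX and 2.77 ± 1.10 CPM in FSE, and 2.60 ± 0.342 CPM in MEX and 2.26 ± 0.448 CPM in MSE. Tyms lay between 0.900 and 2.13 CPM in all 12 libraries. Pseudogenes named for Pcna and Tyms lie elsewhere in the genome, and 7.25% of the exon bases of Mcm7 overlap Ap4m1 on the opposite strand.

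The female count rested on single libraries. Without FEX 1, 24 of 37 female differences were positive (median 0.10), and without FSE 3 also 24 (median 0.12); without FEX 3 there were 8 (median -0.32) and without FSE 1 there were 7. The male count was 23 without MSE 1 and 25 without MSE 3, and the male median ranged from 0.13 without MSE 1 to 0.47 without MSE 2. Endothelial markers, a cell class that can divide, were positive in 1 of 8 in females and 8 of 8 in males; their summed level was 983.3 to 1088 CPM in FEX, 1008 to 1185 CPM in FSE, 1083 to 1152 CPM in MEX and 1030 to 1052 CPM in MSE, 0 of them passed, and none was at 0 in every library. Macrophage markers were positive in 8 of 8 in females and 7 of 8 in males, with 265.3 to 282.2 CPM in FEX, 199.5 to 262.2 CPM in FSE, 194.0 to 254.4 CPM in MEX and 151.1 to 226.9 CPM in MSE, and 0 passed. Fibroblast markers were positive in 5 of 8 in females and 4 of 8 in males, and 0 passed. Their sums ran from 1094 to 1277 CPM in FEX and from 1118 to 1228 CPM in FSE. In males they ran from 882.0 to 1087 CPM in MEX and from 1006 to 1045 CPM in MSE. Over all genes tested, 50.1% were positive in each sex and 0.0% passed. The part of these 3 lists in the cell cycle values was not tested.

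Set against each other, the female exercise difference was below the male one for 31 of the 37 genes, with 6 above 0, against 49.4% of all genes, and a median of -0.31. By role the median was -0.07 for replication, -0.61 for cyclins and kinases, -0.51 for chromosome genes and -0.33 for spindle genes. The test of the difference itself called 0 of the 37 and 0.0% of all genes (edgeR), and voom called 0 of the 37 and 0.0% of all genes; DESeq2's own filter left an adjusted p to 1 of the 37, which did not pass, against 0.205% of genes. At an unadjusted p under 0.05 there were 2 genes, Kif23 and Ccnb1, against 4.74% of all genes. Kif23 gave -0.91 ± 0.35 (edgeR, unadjusted p = 0.0205, adjusted p = 0.93) and Ccnb1 -1.5 ± 0.67 (unadjusted p = 0.0406, same adjusted p). Next came Ccna2 at -0.99 ± 0.48, Prc1 at -0.85 ± 0.42 and Tpx2 at -0.95 ± 0.51. The median was -0.14 without FSE 3, -0.65 without MSE 2 and -0.55 without FEX 3, and the count above 0 was 12, 3 and 3 in those fits; it was 10 without FEX 1 and 10 without MSE 3. Averaged over both sexes, 24 of 37 differences were positive, against 50.5% of all genes, with a median of 0.06, which was -0.09 without FEX 3.

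In that average no gene passed (0 of 37, and 0.0% of all genes, with both edgeR and voom; DESeq2, which called 0.61% of genes, gave none of the 37 an adjusted p), and 1, Pcna, had an unadjusted p under 0.05, against 6.28% of all genes. Pcna averaged 0.22 ± 0.09 (edgeR, unadjusted p = 0.0276, adjusted p = 0.782). Ccna2 followed at 0.48 ± 0.24, Cenpe at -0.51 ± 0.27, Mcm2 at 0.16 ± 0.09 and Mcm5 at 0.27 ± 0.18, each with an adjusted p above 0.05.

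The largest median of the 6 contrasts lay between the sexes in sedentary hearts, where 36 of 37 genes had higher values in females than in males, against 52.4% of all genes, with a median log2 difference of 0.60, against 0.01 over all genes. The exception was Cenpf at -0.07 ± 0.29. None of the 37 passed the test with edgeR, against 2.21% of all genes. An unadjusted p under 0.05 was found for 11, all higher in females, against 18.4% of all genes in either direction. Of all 16213 genes, 1477 were higher in females at that p and 1504 lower. In 14 of the 37 every FSE library lay above every MSE library, against 12.2% of all genes. With DESeq2, 3 of the 34 that had an adjusted p passed, against 5.97% of genes: Ccna2 (adjusted p = 0.00994), Prc1 (0.0347) and Tpx2 (0.0488). With voom 0 passed, against 2.82% of genes. This comparison uses the same FSE and MSE libraries as the exercise differences above, so the values are not independent of those. Nor are the 37 genes independent of one another, since many mitotic ones shifted together between libraries.

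Ccna2 came closest to the threshold. Its FSE libraries had 1.92, 2.24 and 3.0 CPM, against 0.792, 1.35 and 0.567 CPM in MSE, a log2 difference of 1.39 ± 0.35 (edgeR adjusted p = 0.057), and all 3 FSE libraries lay above the MSE libraries. Leaving out MEX 2 (adjusted p = 0.0461) or MSE 2 (1.79, adjusted p = 0.0385) brought it past the threshold in the edgeR fit. Prc1 gave 1.04 ± 0.30 (adjusted p = 0.0904), Kif23 0.81 ± 0.25 (0.104), Ube2c 1.18 ± 0.38 (0.125) and Tpx2 1.19 ± 0.37 (0.109), each without overlap. Tpx2 had 1.66, 2.28 and 3.98 CPM in FSE, against 1.06, 1.44 and 0.945 CPM in MSE, and Ube2c 1.32, 0.747 and 1.68 CPM in FSE, against 0.528, 0.550 and 0.567 CPM in MSE. Ube2c was nearly level across the MSE libraries, while Tpx2 was more than 2-fold apart among the FSE libraries. Cdc20 gave 0.92 ± 0.33 with overlapping groups, as MSE 2 at 2.37 CPM stood among the FSE libraries at 3.05, 2.36 and 2.65 CPM; without MSE 2 it gave 1.51 (edgeR adjusted p = 0.0281).

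Across roles the median sedentary sex difference was larger in mitotic genes than in replication genes, with medians of 0.92 for cyclins and kinases, 0.61 for chromosome genes, 0.63 for spindle genes and 0.23 for replication. Their SEs were larger too, with role medians of 0.34 to 0.38, against 0.16 for replication. Mki67 gave 0.61 ± 0.38 and Top2a 0.91 ± 0.43, Ccnb1 1.25 ± 0.48 and Cdca3 1.09 ± 0.42. In replication, Mcm7 gave 0.31 ± 0.12, Mcm5 0.62 ± 0.26 and Mcm3 0.37 ± 0.16, all 3 without overlap, and Pcna 0.16 ± 0.13. The median over the 37 was 0.39 without FSE 3, 0.42 without MSE 3 and 0.85 without MSE 2, and at least 35 of the 37 stayed above 0 whichever library was left out. It was 0.82 without FEX 2, FSE 1 and FSE 2, a fit in which FSE 3 alone stands for its group. These 3 libraries held the atrial transcript Myl7 at 107, 65.6 and 23.0 CPM, against at most 2.33 CPM in the other 9, and Sln at 43.6, 25.4 and 7.90 CPM, against at most 1.04 CPM.

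**Figure D5:**
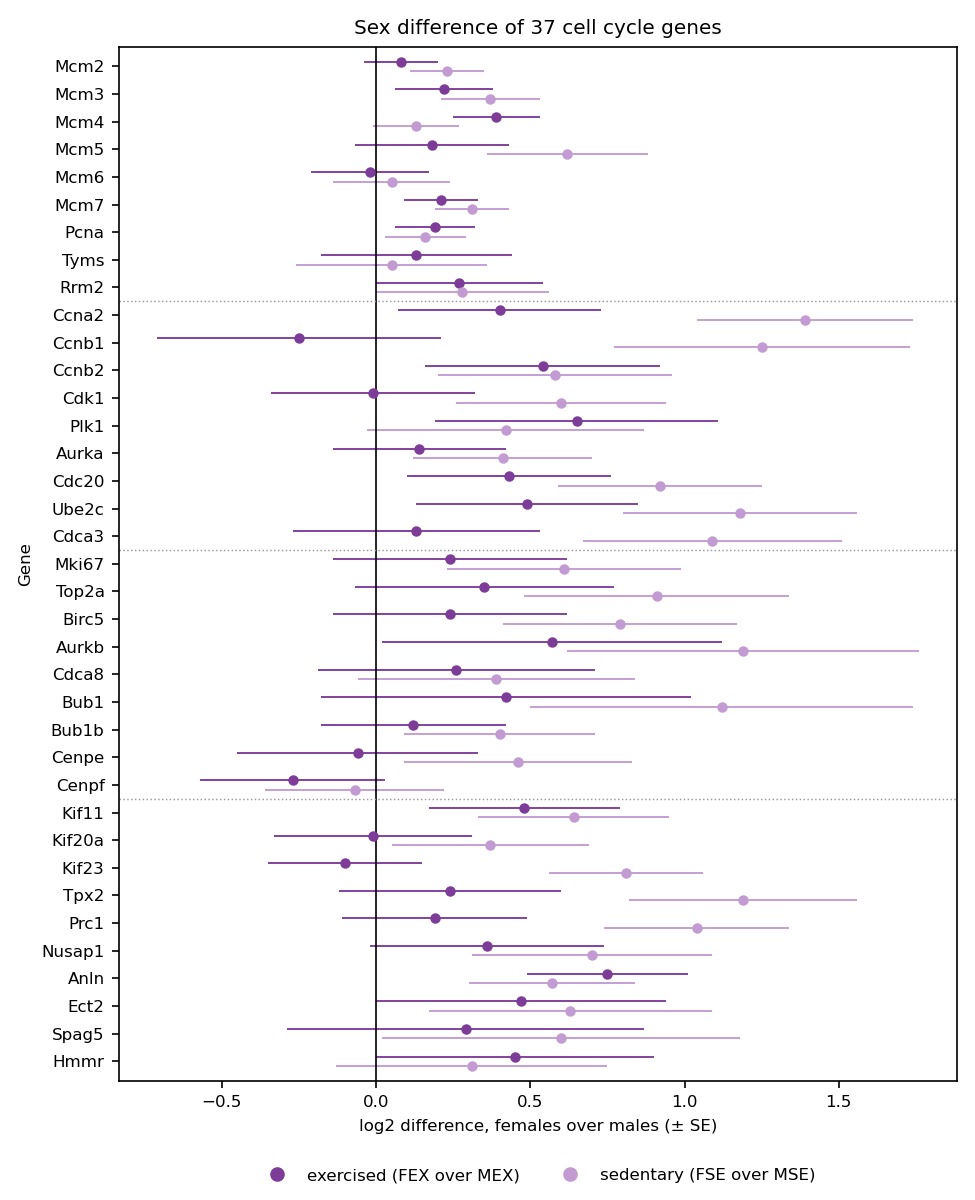
Log2 difference of females over males with its SE (edgeR) for 37 genes, in exercised hearts (dark, FEX over MEX) and sedentary hearts (light, FSE over MSE); dotted lines part the 4 roles. The light points lie right of 0 for all but Cenpf and reach 1.39 for Ccna2; the dark points lie closer to 0 for Ccna2, Ccnb1, Kif23, Tpx2 and Prc1 and further right for Mcm4 and Anln.

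In exercised hearts, 30 of 37 genes had higher values in females than in males, against 50.8% of all genes, with a median of 0.24, which was 0.04 without FEX 3. With edgeR 0 of the 37 passed, against 0.16% of all genes, 0 of 34 with DESeq2, against 1.15%, and 0 of 37 with voom, against 0.136%; 2 had an unadjusted p under 0.05, against 9.84% of all genes. Anln, anillin of the contractile ring, had 1.87, 3.16 and 3.46 CPM in FEX, against 1.37, 1.67 and 2.04 CPM in MEX, a difference of 0.75 ± 0.26 (edgeR, unadjusted p = 0.0133, adjusted p = 0.341). Mcm4 had 11.2, 9.56 and 9.45 CPM in FEX, against 7.96, 9.05 and 6.13 CPM in MEX, a difference of 0.39 ± 0.14 (adjusted p = 0.356), and was the 1 gene of 37 without overlap in this direction, against 6.79% of all genes. Genes that led in sedentary hearts gave smaller values here: Ccna2 0.40 ± 0.33, Prc1 0.19 ± 0.30, Tpx2 0.24 ± 0.36, Ube2c 0.49 ± 0.36 and Kif23 -0.10 ± 0.25. They were chosen for small p-values in sedentary hearts, so smaller values here do not show a change with exercise. Likewise Anln and Mcm4, which led in exercised hearts, gave smaller values in sedentary ones, 0.57 ± 0.27 and 0.13 ± 0.14. Whether the sex gap differs between exercised and sedentary hearts is the same contrast as the difference of the exercise effects above, in which 0 of the 37 passed.

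Markers of other cell types were counted between sedentary females and males in the same way, beside 52.4% of all genes above 0 and 2.21% called. Fibroblast markers had higher values in females for 6 of 8 genes, 1 of which passed the test (edgeR), with sums of 1118 to 1228 CPM in FSE and 1006 to 1045 CPM in MSE. In the other lists given here 0 genes passed. Macrophage markers were higher for 8 of 8, at 199.5 to 262.2 CPM in FSE and 151.1 to 226.9 CPM in MSE, so that the sums overlapped, and valve markers for 6 of 6, at 33 to 79.2 CPM in FSE and 19.2 to 30.7 CPM in MSE. Atrial muscle markers, which besides Myl7 and Sln include Nppa, Myl4 and Bmp10, were higher for 4 of 4 tested, at 250.6 to 386.9 CPM in FSE and 54.1 to 135.6 CPM in MSE, and red cell markers for 5 of 5 tested, at 34.6 to 3630 CPM in FSE and 8.26 to 43.6 CPM in MSE. The atrial sum of 250.6 CPM was that of FSE 3, where Myl7 stood at 0.972 CPM and Sln at 0.0 CPM. That sum thus came mostly from other markers of the atrial list. Cardiomyocyte markers were lower for 8 of 8, at 54107 to 56854 CPM in FSE and 57024 to 65005 CPM in MSE. Fat cell markers were higher for 5 of 5 tested (median 2.82), at 403.1 to 426.6 CPM in FSE and 309.5 to 459.2 CPM in MSE, which overlapped, as did the endothelial sums above, with 6 of 8 markers higher (median 0.08). Mural cell markers were higher for 5 of 7 (median 0.04). Their sums overlapped, at 734.0 to 747.7 CPM in FSE and 740.6 to 818.0 CPM in MSE. No marker of these 9 lists was at 0 in every library, and their part in the sex gap was not tested. Markers of T and natural killer cells summed to at most 1.89 CPM in any library, and those of lymphoid precursors to at most 0.511 CPM, with Rag1 and Rag2 at 0 in all 12. Monocyte and neutrophil markers were higher for 1 of 3 tested, at 6.585 to 12.62 CPM in FSE and 6.527 to 10.25 CPM in MSE. Red cell precursor markers were higher for 1 of 2 tested, at 31.91 to 41.32 CPM in FSE and 34.16 to 75.45 CPM in MSE. The 1 B cell marker tested was higher, with list sums of 3.093 to 5.029 CPM in FSE and 3.169 to 3.637 CPM in MSE.

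Further genes of the same pathways were counted from 4 lists. Over all genes tested, 50.1% were positive for exercise in females, 50.1% in males and 49.4% in the difference between the sexes. Between exercised females and males 50.8% were positive, and between sedentary ones 52.4%. In the same order, 0.0%, 0.0%, 0.0%, 0.16% and 2.21% of all genes passed the test. Of 46 tested genes among 50 other mitosis genes, 16 were positive for exercise in females and 35 in males, 8 in the difference between the sexes, 32 between exercised females and males and 38 between sedentary ones, and 0 passed in any of these. Of 34 other replication genes tested, 21 were positive in females and 26 in males, 9 in the difference, 25 between exercised and 29 between sedentary animals. The genes of entry into the cycle (D- and E-type cyclins, their kinases, E2F factors and Myc; 19 tested) were 11 positive in females, 10 in males, 8 in the difference, and 11 and 13 between the sexes in exercised and sedentary hearts. The brakes (inhibitors of cyclin-dependent kinases, retinoblastoma relatives and DREAM subunits; 18 tested) were 11, 14, 6, 7 and 11 in the same order. The mitosis list thus had the most uneven counts between females and males, as the 28 mitotic genes had, with 4 of 28 in females and 23 of 28 in males.

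Of the 117 tested genes of these lists 2 passed the test (1.71%), both between sedentary females and males, where 2.21% of all genes passed. Cdt1, which loads the helicase onto DNA before replication, had 1.77, 2.04 and 2.39 CPM in FSE, against 1.06, 1.06 and 0.709 CPM in MSE, and 2.12, 2.16 and 2.07 CPM in FEX, against 1.61, 2.25 and 1.15 CPM in MEX. It was higher in sedentary females by 1.12 ± 0.27 on the log2 scale (edgeR adjusted p = 0.0489), a call that held in the fits without MEX 2 or MEX 3 and was lost in the other 10 that each left out 1 library. Ccnd3, cyclin D3, had 54.0, 62.4 and 61.5 CPM in FSE, against 50.1, 47.2 and 47.9 CPM in MSE, a rise of 0.29 ± 0.07 (edgeR adjusted p = 0.0395), which was lost without any 1 of FEX 1, FEX 2, FEX 3, FSE 2, FSE 3, MSE 1, MSE 2 and MSE 3. Both calls were also lost with voom, in a fit of the FSE and MSE libraries alone, and without FEX 2, FSE 1 and FSE 2. In every other comparison, 0 genes of the 4 lists passed.

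For exercise in males, the smallest p-values of the lists belonged to genes with positive differences. Among replication genes these were Cdt1 at 0.81 ± 0.28, Cdc6, its loading partner, at 0.74 ± 0.35 and the clamp loader subunit Rfc4 at 0.38 ± 0.18. Mitosis genes were led by Stmn1, the microtubule-destabilizing stathmin, at 0.38 ± 0.12, the kinesin Kif22 at 1.23 ± 0.44 and Shcbp1 at 1.05 ± 0.42. Kif22 had 1.08, 1.67 and 1.62 CPM in MEX, against 0.566, 0.677 and 0.614 CPM in MSE, without overlap. Among entry genes Ccnd3 gave 0.18 ± 0.07, Myc, the growth factor-induced transcription factor, 1.49 ± 0.55 and Ccnd2, cyclin D2, 0.28 ± 0.15. Myc had 28.9, 74.9 and 19.2 CPM in MEX, against 7.77, 20.9 and 15.2 CPM in MSE, so that MEX 2 stood far above the rest. The brakes Cdkn1c and Cdkn2d, inhibitors of cyclin-dependent kinases, and Wee1, the kinase that holds CDK1 inactive, gave 0.40 ± 0.13, 0.32 ± 0.12 and 0.36 ± 0.18. The edgeR adjusted p was 0.615 to 0.652 for these 12 genes.

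For exercise in females, the leading genes of the lists had both signs, and each had an edgeR adjusted p of 1.0. Mitosis genes were led by Mybl2, the B-Myb factor that turns on mitotic genes, at 0.92 ± 0.42, Spc25 and Nuf2, which are both subunits of the NDC80 kinetochore complex, at -0.56 ± 0.27 and 0.61 ± 0.34. Mybl2 had 0.541, 0.960 and 0.904 CPM in FEX, against 0.226, 0.393 and 0.663 CPM in FSE, and Spc25 0.958, 0.760 and 0.904 CPM in FEX, against 1.32, 1.18 and 1.37 CPM in FSE. Among replication genes, Chaf1a, a subunit of the chromatin assembly factor, gave -0.33 ± 0.22 and Pola1, the catalytic subunit of DNA polymerase alpha, -0.34 ± 0.23. Entry genes were led by Cdk2 at 0.16 ± 0.10, Ccne2, cyclin E2, at 0.43 ± 0.29 and E2f4 at -0.15 ± 0.10. The brakes were led by Btg2 at 0.28 ± 0.20, Lin9, a DREAM subunit, at -0.26 ± 0.20 and Rbl1, the retinoblastoma relative p107, at -0.27 ± 0.24. In the difference between the sexes, Kif22 at -1.82 ± 0.61, Shcbp1 at -1.57 ± 0.59 and Stmn1 at -0.43 ± 0.17 led the mitosis genes and Cdt1 at -0.77 ± 0.38, Chaf1a at -0.62 ± 0.31 and Gins4 at -0.25 ± 0.14 the replication genes, all negative. Entry genes were led by Ccnd2 at -0.40 ± 0.21, Tfdp1, the partner of E2F factors, at 0.21 ± 0.11 and Myc at -1.34 ± 0.76, and the brakes by Lin54, a DREAM subunit, at -0.31 ± 0.16, Cdkn1c at -0.34 ± 0.18 and Cdkn2d at -0.29 ± 0.17. The edgeR adjusted p was 0.93 for each of these 12 genes.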

How the data were processed

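RNA from mouse hearts was sequenced in 12 libraries, 3 in each group of sex and treadmill exercise. The deposited table holds raw counts per gene, which the authors made by trimming with Trimmomatic 0.36, aligning with STAR 2.5.2b to GRCm38 and counting with featureCounts of Subread 1.5.2, per the submitters' processing notes; the sources used here give neither the annotation release nor the strand setting. The analysis used edgeR 4.0.16 under R 4.3.3: filterByExpr, scaling by the trimmed mean of M-values, and 1 group-means model over all 12 libraries with 8 residual degrees of freedom. The 6 contrasts were tested with the quasi-likelihood test with robust spread, Benjamini-Hochberg adjusted over 16213 genes at 0.05, after the code was tested on simulated data. Mean log2 levels used a prior count of 2. Within groups, libraries differed beyond sampling noise, so none was taken as deposited more than once; whether each is 1 animal is not given. The 37 genes, the 4 pathway lists and the 14 marker lists were chosen with earlier results of these data known. A panel of 20 genes, the 5 of smallest p per contrast and the 3 of smallest p per list were named; 1 of these is not reported here. Alternatives were RLE scaling, no filter, CPM above 1 in 3 libraries, DESeq2 1.42.0, voom of limma 3.58.1 with sample weights, only the groups compared, leaving out libraries, and, added after seeing the data, a bias-adjusted fit without a filter. Gene positions are from the GRCm38 annotation.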

Additional observations from a re-analysis of the deposited data

How the results depend on the processing

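Of 2298 values recomputed under alternatives, 2196 were counted as kept. Single genes had to keep direction and side of the threshold, while counts and list medians had to stay near their size. For list medians the limit was 0.3, the pooled SD of the list level within groups, and a change of sign was allowed. That limit was wider than the medians for exercise in females, in males, in the average and between exercised sexes. Fits without a library from outside the groups compared were also counted, and these could hardly move a value. The total of kept values is thus no measure of how firm the results are. The median for exercise in females, -0.09, was 0.1 without FEX 1 and 0.12 without FSE 3, both counted as kept. Without a filter, edgeR's fit called 357 genes for exercise in females, 327 in males, 173 in the difference, 399 in the average, 531 between exercised and 1317 between sedentary sexes, among them 1 of the 37 genes in the average (Pcna) and 5 between sedentary sexes; the bias-adjusted fit without a filter, added after seeing the data, called 43 between exercised sexes and 1 of the 37 (Ccna2) between sedentary ones, and 0 for exercise. DESeq2 called 1, 25, 10, 14, 167 and 866 genes in the same 6 contrasts and 3 of the 37 between sedentary sexes; its own filter left 2, 1 and 0 of the 37 with an adjusted p for exercise in males, the difference and the average. A fit of FEX and MEX alone called 15 genes. Without FEX 2, FSE 1 and FSE 2, the libraries highest in Myl7, 14 genes were called between sedentary sexes, members above 0 were 5 for exercise in females, 3 in the difference (median -0.66) and 15 in the average, Ccne2 in females gave -0.03 and Cenpf between sedentary sexes 0.39; the cause was not tested, and this fit has 1 FSE library, assumed to vary like the other groups.

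With each library left out in turn, the genes called ranged from 0 to 1 for exercise in females, for the difference and for the average, from 17 to 55 between exercised and from 68 to 462 between sedentary sexes, with 0 to 2 of the 37. Members above 0 ranged from 7 to 24 for exercise in females, 3 to 12 in the difference (median -0.65 to -0.14) and 15 to 31 in the average. Single genes turned as well. For exercise in females, Ccna2 ranged from -0.23 to 0.22, Mki67 from -0.71 to 0.07, Top2a from -0.55 to 0.05 and Tpx2 from -0.73 to 0.03; in males, Mki67 ranged from -0.09 to 0.41 and Top2a from -0.01 to 0.61. Between exercised sexes Prc1 ranged from -0.11 to 0.40 and Tpx2 from -0.09 to 0.52, and between sedentary sexes Cenpf ranged from -0.37 to 0.12. RLE scaling moved none of the 37 genes across the threshold and 1 of them across 0, Cdk1 for exercise in females. Its difference was 0.00 in edgeR's own scaling, and members above 0 were 10 with RLE scaling. Over all genes, RLE scaling called 25 between exercised and 361 between sedentary sexes, against 26 and 358 in the main fit. Counts under 100 in 26 of the 37 genes limit what 3 libraries a group can show. No paired analysis was possible because the labels give the groups no shared replicate numbers.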
